A study of Mus musculus with 18 samples.

Results

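The genes described here carry out antigen presentation by major histocompatibility complex (MHC) class I. The list holds 10 genes named by symbol, H2-K1, H2-D1, B2m, Tap1, Tap2, Tapbp, Psmb8, Psmb9, Psmb10 and Nlrc5. Of these, 8 had a row in the table of 17672 genes and all 8 were among the 10178 genes tested, and H2-D1 and B2m were not analysed here. RNA was sequenced from an immortalised mouse brown adipocyte line differentiated in culture. All 6 groups carried a stable shRNA against Abhd5 and a pINDUCER20 construct for shRNA-resistant, mCherry-tagged ABHD5, the activator of the triglyceride lipase ATGL. Cells labelled ABHD5 KD received no doxycycline (Dox), and cells labelled WT received 1 µg/ml Dox to switch the construct on, for 24 h in this experiment, within the 24 to 48 h of the labels. Each state then received a 3 h treatment with DMSO as vehicle, with 10 nM isoproterenol (ISO), which activates β-adrenergic receptors, or with 20 µM SR-3420, a synthetic ABHD5 ligand, in 3 libraries per group and 18 in all. The comparison that bears on these genes is Dox against no Dox in each of the 3 treatments. Because all 18 libraries came from cells with the construct, Dox itself and the ABHD5 it induced cannot be told apart.

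Class I molecules show peptides from inside the cell to cytotoxic T cells. The proteasome cuts proteins into peptides, and interferons exchange its catalytic subunits for the immunoproteasome subunits encoded by Psmb8, Psmb9 and Psmb10. The transporter formed by TAP1 and TAP2 moves peptides into the endoplasmic reticulum, where tapasin, the product of Tapbp, helps load them onto a heavy chain such as H2-K1 paired with β2-microglobulin. NLRC5 is the transactivator of class I genes, and interferons raise the pathway through transcription factors that include IRF9 and IRF1. Most nucleated cells, adipocytes among them, carry class I at their surface.

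In mouse genome build mm9, 6 of the 8 genes lay on chromosome 17 within the major histocompatibility complex and 2 on chromosome 8. H2-K1 spanned 34132957 to 34137278 on the minus strand and Tapbp 34056423 to 34066235 on the plus strand. Psmb9, Tap1, Psmb8 and Tap2 followed each other without another member between them. Psmb9 (34319044 to 34324275, minus strand) and Tap1 (34324501 to 34334170, plus strand) pointed away from each other with 225 bases between them. Psmb8 (34335140 to 34338399) began 969 bases after Tap1, and Tap2 (34341424 to 34353266) 3024 bases after Psmb8, both on the plus strand. On chromosome 8, Nlrc5 covered 96996663 to 97051172 on the plus strand and Psmb10 108459628 to 108462292 on the minus strand. These spans are those of the count table. In the GENCODE annotation of this build, 4 of the spans overlapped a gene on the other strand, namely Tap1 (Psmb9), Tap2 (Gm15821 and Gm20496), Psmb8 (Gm20496) and Psmb10 (Gm16156). The GENCODE model of Psmb9 is longer than its span in the count table and reaches into Tap1, whereas the shorter span does not. No source says that strand was used in counting, and the values of these 4 genes and of Psmb9 are uncertain to that degree. H2-K1 has near-identical class I paralogs that could share its reads, and its values are uncertain for that reason.

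Promoter windows of 250 bases before and 50 bases from the start site were taken from RefSeq (GRCm38.p6) and matched 6 of the 8 genes. They were searched on both strands for the letters of elements known in class I control: the interferon regulatory factor (IRF) element GAANNGAAA, a longer IRF form with a further A before its gap, the STAT element TTCNNNGAA, the NF-κB element, the X2 core TGACG and the Y box CCAAT. The windows of 4 genes are shown, with H2-K1 as the heavy chain, Tap1 as the gene raised in every treatment, Psmb8 as an interferon-exchanged subunit, and Tapbp as the gene whose Dox effect differed most between DMSO and SR-3420 by unadjusted p. Each reads 5′ to 3′ along its gene, and capitals mark the searched letters on either strand.
H2-K1, chr17:34000298-34000597, minus strand: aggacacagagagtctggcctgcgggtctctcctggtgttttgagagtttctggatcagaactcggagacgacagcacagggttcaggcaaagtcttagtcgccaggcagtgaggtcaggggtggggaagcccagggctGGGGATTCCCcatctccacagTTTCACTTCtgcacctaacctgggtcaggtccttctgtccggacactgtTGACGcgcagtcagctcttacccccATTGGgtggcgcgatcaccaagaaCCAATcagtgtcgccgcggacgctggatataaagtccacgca
Tap1, chr17:34187306-34187605, plus strand: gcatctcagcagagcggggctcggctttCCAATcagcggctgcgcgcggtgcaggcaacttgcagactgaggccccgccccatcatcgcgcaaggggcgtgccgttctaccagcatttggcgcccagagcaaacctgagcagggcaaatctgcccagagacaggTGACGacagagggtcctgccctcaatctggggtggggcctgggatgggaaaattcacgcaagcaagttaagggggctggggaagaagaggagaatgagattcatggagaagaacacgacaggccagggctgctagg
Psmb8, chr17:34197945-34198244, plus strand: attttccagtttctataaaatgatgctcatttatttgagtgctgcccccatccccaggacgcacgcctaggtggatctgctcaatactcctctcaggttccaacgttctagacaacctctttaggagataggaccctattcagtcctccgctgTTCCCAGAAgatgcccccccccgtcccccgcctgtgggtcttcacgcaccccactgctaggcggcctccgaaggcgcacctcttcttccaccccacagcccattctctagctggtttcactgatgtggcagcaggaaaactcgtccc
Tapbp, chr17:33919228-33919527, plus strand: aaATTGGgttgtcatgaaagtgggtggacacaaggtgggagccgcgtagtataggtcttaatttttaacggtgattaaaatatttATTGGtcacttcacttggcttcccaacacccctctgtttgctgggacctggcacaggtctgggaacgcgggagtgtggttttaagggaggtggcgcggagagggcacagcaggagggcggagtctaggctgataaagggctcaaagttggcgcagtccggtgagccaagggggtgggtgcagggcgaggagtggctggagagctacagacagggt

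The H2-K1 window held the NF-κB letters from -111 to -102 bases, the shorter IRF letters from -90 to -82, the X2 core from -41 to -37 and the Y box from -16 to -12 and from 9 to 13, counted from the start site. A second RefSeq start of H2-K1 gave a window with the same letters. The Tap1 window held a Y box from -222 to -218 and an X2 core from -86 to -82. As Psmb9 starts 225 bases away on the other strand, its window shared 275 bases with that of Tap1 and held the same X2 core and Y box. The Psmb8 window held the STAT letters from -97 to -89, Tapbp held 2 Y boxes, and Psmb10 held none of the letters. Among 32817 mouse promoter windows of the same length, 7.52% held the shorter and 3.43% the longer IRF letters, 8.29% the STAT letters, 4.8% the NF-κB letters, 20.8% the X2 core and 37.4% the Y box. A match describes letters only, and a missing match says only that these letters are not in this window.

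**Figure D1:**
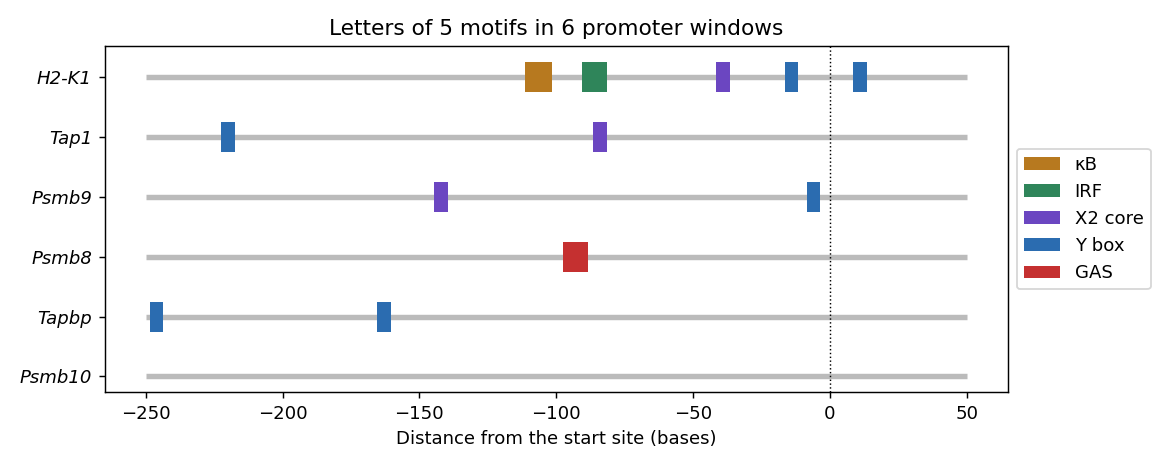
Position of the searched letters in the promoter windows of 6 genes, drawn as distance in bases from the start site (dotted line), with 250 bases before and 50 bases from the start and 1 colour per element (κB, the NF-κB letters; IRF, the shorter IRF letters; GAS, the STAT letters). H2-K1 held 4 kinds of element, Tap1 and Psmb9 the X2 core and Y box they share, and Psmb10 none.

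Library totals ran from 689910 to 1956565 counts with a median of 1145729. Values are given as CPM, which are counts relative to the TMM-scaled library size. The counted length in the deposited table lay within 10% of a gene's intron length for 72.6% of 16536 genes and within 10% of its exon length for 2.27%, so the counted length mostly leaves exons out. The study's methods, however, name a count option for whole genes, and the Abhd5 counts below rose with a construct of its coding sequence. Whether the values measure mainly unspliced RNA or all RNA of a gene is thus not settled, and this holds for every CPM value given here. The SR-3420 with Dox replicate 1 library stood apart, as its 10 most counted genes held 35.6% of its counts against 16.3% to 26.5% in the other 17, and its TMM factor of 0.768 was the lowest. For the 8 class I genes, the Dox effects in SR-3420 that passed or that moved by over 1.5 times, and the calls that changed, are also given without it. Abhd5, the gene knocked down and re-expressed, followed its labels in every treatment. It lay at 47.2 to 55.8 CPM without and 484 to 656 CPM with Dox in DMSO, at 130 to 173 and 808 to 859 CPM in ISO, and at 70.9 to 78.5 and 575 to 849 CPM in SR-3420. The construct carries the coding sequence of ABHD5, and whether these Abhd5 counts came from it or from the endogenous gene was not tested.

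Levels of different genes were compared as CPM per kilobase of counted length. The order and the percentiles below depend on that length, which for Nlrc5 was 44776 bases against 7298 exon bases. An order by exon length was not tested. H2-K1 was the most abundant of the 8 genes in all 6 groups, from 91.1 ± 3.77 CPM per kilobase (SD, n = 3) in ISO without Dox to 209 ± 19.2 in SR-3420 with Dox, and its mean level lay at percentile 99.7 among the genes tested. Nlrc5 had the lowest mean in all 6 groups, between 2.33 ± 0.213 CPM per kilobase in DMSO without Dox and 5.22 ± 1.15 in SR-3420 with Dox, but its replicates overlapped those of Psmb9 in ISO without Dox and in the 3 groups with Dox. Tapbp was second without overlap in the 2 DMSO groups only. In ISO without Dox (17.2 ± 3.47 CPM per kilobase against 16.8 ± 1.08), SR-3420 without Dox (18.4 ± 1.73 against 16.3 ± 4.62) and ISO with Dox (21.9 ± 5.68 against 17.8 ± 5.12) it overlapped Psmb10, and in SR-3420 with Dox Psmb8 (20.6 ± 1.75) and Tapbp (19.9 ± 4.95) overlapped. In DMSO without Dox, Tapbp (18 ± 3.55 CPM per kilobase) and Psmb10 (9.24 ± 0.84) followed H2-K1 without overlap, whereas Psmb8 (6.06 ± 0.43), Tap1 (5.34 ± 1.89) and Tap2 (5.13 ± 1.39) could not be ordered beyond their spread. With Dox the order in DMSO was H2-K1, Tapbp, Psmb10, Tap1, Psmb8, Tap2, Psmb9 and Nlrc5, and each of the last 5 overlapped its neighbour. Over the 6 groups, the other genes lay at percentile 93.6 (Tapbp), 91.3 (Psmb10), 88.0 (Psmb8), 84.9 (Tap1), 74.8 (Tap2), 73.7 (Psmb9) and 62.8 (Nlrc5).

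With Dox, most of the class I genes rose, by modest amounts. Averaged over the 3 treatments, 7 of the 8 genes passed the test upward (edgeR's quasi-likelihood test, Benjamini-Hochberg adjusted p of 0.05 or less over all genes tested), against 11.8% of all genes tested, and none passed downward, against 8.73%. Psmb10 did not pass, with a mean log2 fold change of 0.43 ± 0.16 (SE) and an adjusted p of 0.0530, but it did in 4 of the 18 fits that left out a library (adjusted p 0.0270 to 0.0450), where the library was replicate 1 of DMSO or of ISO with Dox, replicate 2 of SR-3420 with Dox, or replicate 3 of SR-3420 without Dox. Tap1 rose most, 2.77-fold, and Psmb8 rose 2.15-fold, and these 2 were the only members that also reached a log2 fold change of 1, against 1.66% of all genes. Psmb8 was tested mainly through the groups in which it was high, and the members were chosen with earlier results of these data known. Within treatments, 3 of 8 passed upward in DMSO against 1.09% of all genes, 2 of 8 in ISO against 7.92%, and 4 of 8 in SR-3420 against 7.26%. None passed downward, against 0.0884%, 4.82% and 4.28% of all genes in DMSO, ISO and SR-3420. The median log2 fold change of the 8 genes was 1.05 in DMSO, 0.58 in ISO, 0.63 in SR-3420 and 0.75 on average, while the median over all genes tested lay between -0.01 and 0.00. The replicates with and without Dox did not overlap, with Dox higher, for 8 of 8 genes in DMSO (7.98% of all genes), 5 of 8 in ISO (14.7%) and 4 of 8 in SR-3420 (15.4%). Without the SR-3420 with Dox replicate 1 library, 4 of 8 still passed in SR-3420, with log2 fold changes of 1.03 for H2-K1, 1.8 for Tap1, 1.41 for Psmb8 and 1.14 for Nlrc5, and 7 of 8 on average. With the replicate number as a block, which the labels do not tie to a shared experiment, H2-K1, Tap2, Psmb9 and Psmb10 also passed in DMSO (edgeR adjusted p = 0.0016, 0.016, 0.038 and 0.015), Nlrc5 in ISO (0.012) and Psmb10 on average (0.021). Without the block, in DMSO, 1 of 8 passed (Nlrc5) without the library DMSO without Dox replicate 3, and 5 of 8 without DMSO with Dox replicate 1. Scaling by library totals in place of TMM factors moved the median of all genes to -0.22 in SR-3420 and -0.12 on average, and the share of passing genes that were higher from 62.9% to 22.5% and from 57.4% to 26.8%, while 4 and 6 of the 8 genes passed upward.

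**Figure D2:**
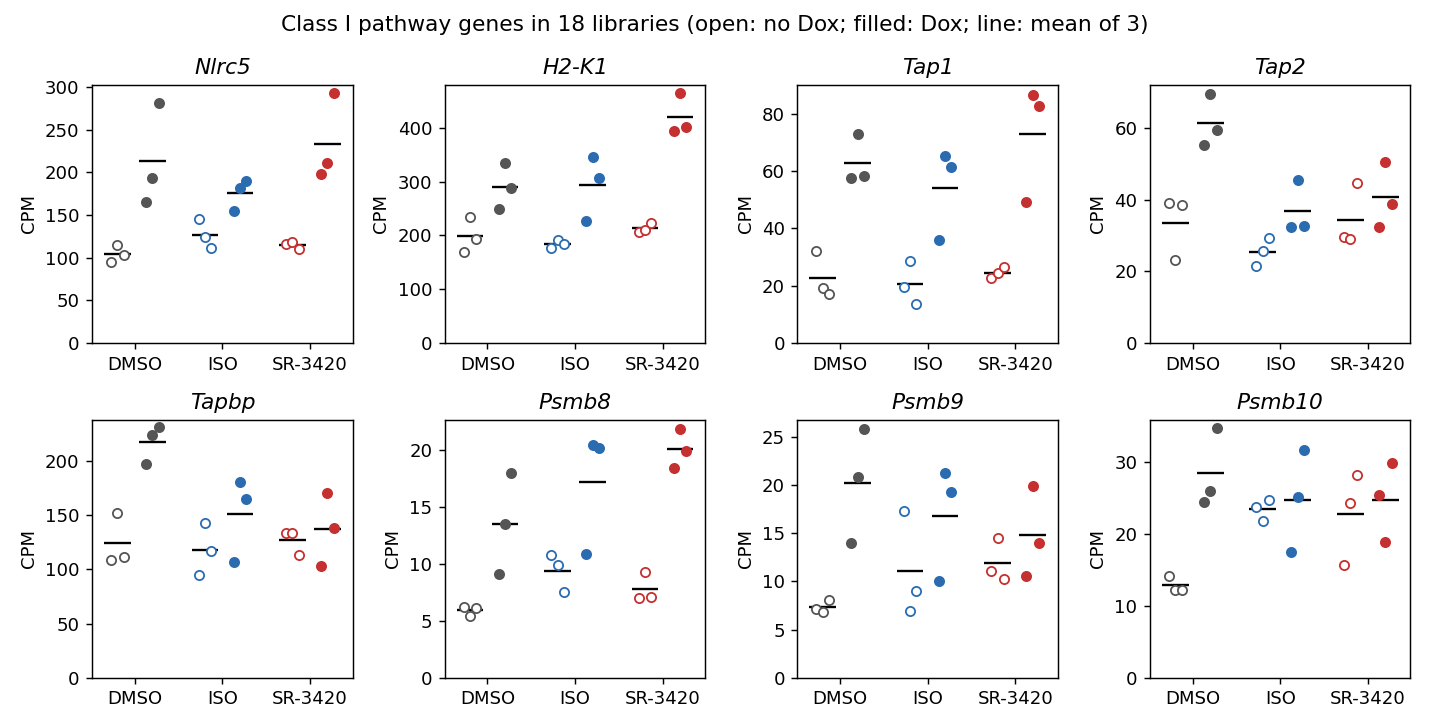
CPM of the 8 class I genes in each of the 18 libraries by treatment, without Dox (open points) and with Dox (filled points), with a line at the mean of 3 libraries. In DMSO every filled point lies above every open one for all 8 genes, whereas Tapbp, Psmb9 and Psmb10 overlap in ISO and SR-3420.

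Nlrc5, the class I transactivator, rose 2.03-fold both in DMSO and in SR-3420. In DMSO it was at 95.2, 114 and 103 CPM without Dox and at 165, 194 and 281 CPM with Dox. In SR-3420 it was at 116, 118 and 110 CPM without and at 198, 211 and 293 CPM with Dox. The groups were separate in both treatments, and replicate 3 was the highest library with Dox in each. The log2 fold change was 1.02 ± 0.18 in DMSO (SE, adjusted p = 0.00060 by edgeR) and 1.02 ± 0.17 in SR-3420 (adjusted p = 8.8e-05). In ISO the libraries without Dox, at 145, 124 and 111 CPM, lay close below those with Dox, at 155, 182 and 190 CPM. That change of 0.48 ± 0.17 on the log2 scale did not pass (edgeR adjusted p = 0.0677), and its 95% interval ran from 0.12 to 0.83. It did pass when low counts were not filtered (0.49, edgeR adjusted p = 0.0285) and with the replicate block (0.012).

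H2-K1, the heavy chain, rose in ISO and SR-3420. In SR-3420 it was at 207, 210 and 224 CPM without Dox and at 395, 465 and 402 CPM with Dox, a tight and fully separate pair of groups. The log2 fold change there was 0.98 ± 0.15 (SE, edgeR adjusted p = 3.1e-05). In ISO it was at 176, 191 and 184 CPM without and at 226, 347 and 307 CPM with Dox, a log2 fold change of 0.67 ± 0.15 (edgeR adjusted p = 0.0026). In DMSO, 170, 234 and 194 CPM without Dox stood against 248, 335 and 288 CPM with Dox. The DMSO groups were separate but narrowly so, and the log2 fold change of 0.54 ± 0.15 did not pass (edgeR adjusted p = 0.0883). Its 95% interval ran from 0.23 to 0.86, and the gene did pass with the replicate block (edgeR adjusted p = 0.0016), when low counts were not filtered, when DMSO without Dox replicate 2 was omitted and when DMSO with Dox replicate 1 was omitted.

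Tap1, one subunit of the peptide transporter, was the only member that passed in all 3 treatments. In DMSO it was at 32.0, 19.0 and 17.2 CPM without Dox and at 57.8, 72.9 and 58.4 CPM with Dox. In ISO the values were 19.5, 28.8 and 13.5 CPM without and 35.8, 65.4 and 61.6 CPM with Dox. In SR-3420 they were 22.6, 24.4 and 26.7 CPM without and 49.2, 86.5 and 82.9 CPM with Dox. With Dox, Tap1 was higher in every library than in any library without Dox of any treatment, and replicate 1 was the lowest with Dox in all 3. The log2 fold changes were 1.42 ± 0.28, 1.43 ± 0.28 and 1.56 ± 0.25 in DMSO, ISO and SR-3420 (SE, edgeR adjusted p = 0.0025, 0.00064 and 7.0e-05). Without the DMSO without Dox replicate 3 library the change in DMSO was 1.23 and its adjusted p 0.0510.

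Tap2, the other subunit, moved less. In DMSO it was at 39.1, 23.1 and 38.6 CPM without Dox and at 55.4, 69.7 and 59.5 CPM with Dox, and the groups were separate. In ISO it was at 21.6, 25.8 and 29.3 CPM without and at 32.5, 45.7 and 32.7 CPM with Dox, also separate but close. In SR-3420 the values 29.6, 29.0 and 44.7 CPM without and 32.5, 50.7 and 38.9 CPM with Dox overlapped. None of these changes passed within a treatment, at 0.82 ± 0.22, 0.52 ± 0.25 and 0.26 ± 0.22 on the log2 scale (SE, edgeR adjusted p = 0.0729, 0.173 and 0.515). The DMSO change did pass with the replicate block (edgeR adjusted p = 0.016) and when low counts were not filtered (0.017). The SR-3420 change was 0.41 without the SR-3420 with Dox replicate 1 library (edgeR adjusted p = 0.348). Over all alternative fits it ranged from 0.04 to 0.47. The mean over the treatments, 0.53 ± 0.13, passed (edgeR adjusted p = 0.0048).

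Tapbp, which encodes tapasin, rose in DMSO and differed little with Dox in SR-3420. In DMSO it was at 109, 152 and 112 CPM without Dox and at 197, 224 and 231 CPM with Dox, and every library with Dox was the higher. The log2 fold change was 0.82 ± 0.19 (SE, edgeR adjusted p = 0.0164), a call lost when any of 4 libraries was omitted (DMSO without Dox 1 or 3 and DMSO with Dox 2 or 3), where the adjusted p reached 0.184, and also lost with library totals as the scale (0.0867). In ISO, 95.1, 143 and 117 CPM without Dox overlapped 107, 181 and 165 CPM with Dox. In SR-3420, 134, 134 and 113 CPM without Dox overlapped 103, 171 and 138 CPM with Dox, with replicate 1 below all libraries without Dox. The changes of 0.35 ± 0.19 and 0.11 ± 0.19 on the log2 scale did not pass (edgeR adjusted p = 0.251 and 0.782), and the mean of 0.42 ± 0.11 did (edgeR adjusted p = 0.0053), a call lost with library totals as the scale (0.31, adjusted p = 0.05005). The SR-3420 change was 0.29 without the SR-3420 with Dox replicate 1 library, -0.07 without replicate 2 and -0.09 with library totals as the scale.

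Psmb8, an immunoproteasome subunit, was counted in few reads, between 4 and 16 per library without Dox and 13 to 26 with Dox. It exceeded the 8.73 CPM that the filter on low counts asks of a gene in 3 of 9 libraries without Dox and in 9 of 9 with Dox, so it was tested mainly through the groups in which it was high. In SR-3420 it was at 6.97, 9.29 and 7.06 CPM without and at 18.5, 21.9 and 20.0 CPM with Dox. That change passed, at 1.35 ± 0.32 on the log2 scale (SE, edgeR adjusted p = 0.0054). In DMSO it was at 6.23, 5.44 and 6.09 CPM without and at 9.15, 13.5 and 18 CPM with Dox, and in ISO at 10.8, 9.91 and 7.51 CPM without and at 10.8, 20.5 and 20.2 CPM with Dox. In DMSO the groups were clearly separate, while in ISO the lowest library with Dox was barely above the highest without. The changes of 1.08 ± 0.40 and 0.88 ± 0.34 did not pass (edgeR adjusted p = 0.304 and 0.0879). Without ISO with Dox replicate 1, the low library, the ISO change was 1.13 and passed (edgeR adjusted p = 0.0372).

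Psmb9, its partner subunit that shares a promoter region with Tap1, was at 7.12, 6.80 and 8.12 CPM without Dox and at 14.0, 20.8 and 25.8 CPM with Dox in DMSO. The groups were separate, and the libraries without Dox held 5 to 8 counts each. The log2 fold change of 1.36 ± 0.40 did not pass (SE, edgeR adjusted p = 0.114). It did pass with the replicate block (1.36, edgeR adjusted p = 0.038), when low counts were not filtered (1.37, 0.037) and without DMSO with Dox replicate 1 (1.64, 0.0447). In ISO it was at 17.3, 6.94 and 9.01 CPM without and at 10.0, 21.3 and 19.3 CPM with Dox, and in SR-3420 at 11, 14.5 and 10.2 CPM without and at 10.5, 19.9 and 14.0 CPM with Dox. Both overlapped, and the changes were 0.63 ± 0.37 and 0.29 ± 0.35 on the log2 scale (edgeR adjusted p = 0.290 and 0.674). The SR-3420 change was 0.50 without the SR-3420 with Dox replicate 1 library (edgeR adjusted p = 0.492). Over all alternative fits it ranged from 0.03 to 0.50, and the ISO change from 0.43 to 1.05. The mean of 0.76 ± 0.22 passed (edgeR adjusted p = 0.0128).

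Psmb10, the third immunoproteasome subunit, was separate by Dox in DMSO and overlapped in ISO and SR-3420. It was at 14.2, 12.2 and 12.2 CPM without Dox and at 24.6, 26 and 34.8 CPM with Dox in DMSO, a log2 fold change of 1.09 ± 0.30 that did not pass (SE, edgeR adjusted p = 0.0729). This DMSO change did pass with the replicate block (edgeR adjusted p = 0.015) and when low counts were not filtered (0.030). In ISO Psmb10 was at 23.8, 21.8 and 24.8 CPM without and at 17.5, 25.2 and 31.8 CPM with Dox. In SR-3420 it was at 15.7, 24.4 and 28.2 CPM without and at 25.5, 18.9 and 30.0 CPM with Dox. Libraries without Dox were already near 23 CPM on average in both, and the changes of 0.07 ± 0.27 and 0.14 ± 0.26 on the log2 scale had 95% intervals from -0.48 to 0.61 and from -0.39 to 0.67. Their sign turned in some fits, to -0.09 in SR-3420 with library totals as the scale and to -0.12 in ISO without ISO with Dox replicate 3.

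The Dox effect was then compared between treatments for each gene. By edgeR, 0 of 8 genes passed for ISO minus DMSO (2.18% of all genes passed), 0 of 8 for SR-3420 minus DMSO (0.757%) and 0 of 8 for SR-3420 minus ISO (0.874%). DESeq2 and limma-voom also passed 0 of 8 in each, while a fit with the replicate number as a block passed 1, Tapbp for SR-3420 minus DMSO (adjusted p = 0.014). At an unadjusted p under 0.05, edgeR had 2, 3 and 1 of the 8 genes in the 3 comparisons, against 14.1%, 12.1% and 10.6% of all genes, and the last is about the share over all genes. For ISO minus DMSO these were Psmb10, with a difference of -1.03 on the log2 scale (95% interval -1.85 to -0.20), and Nlrc5, with -0.54 (-1.05 to -0.03). For SR-3420 minus DMSO they were Tapbp, with -0.71 (-1.25 to -0.17), Psmb10, with -0.95 (-1.76 to -0.14), and H2-K1, with 0.44, whose interval began at 0.00076. For SR-3420 minus ISO it was Nlrc5, with 0.55 (0.05 to 1.04). Without the SR-3420 with Dox replicate 1 library these differences were -0.53 for Tapbp, -0.97 for Psmb10 and 0.49 for H2-K1 in SR-3420 minus DMSO and 0.65 for Nlrc5 in SR-3420 minus ISO, and 0 of 8 genes passed in either by edgeR. Tap1 gave the smallest spread between treatments, with differences of 0.01 for ISO minus DMSO (-0.77 to 0.79) and 0.15 for SR-3420 minus DMSO (-0.64 to 0.93), intervals that still allow a change of more than 0.6 on the log2 scale either way. These comparisons share libraries, and their values are set side by side without a test across them.

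**Figure D3:**
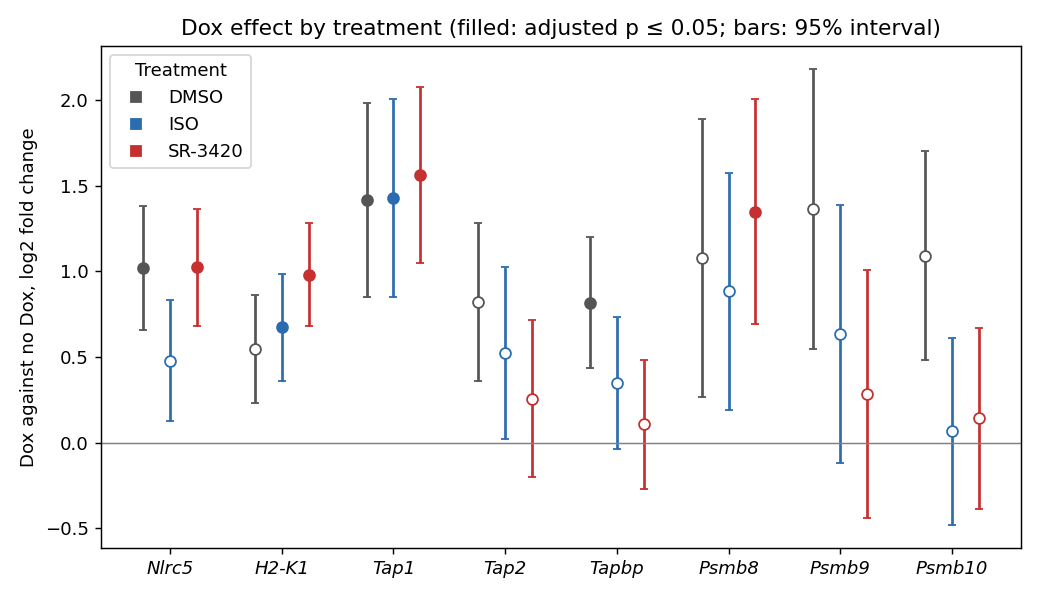
Log2 fold change of Dox against no Dox for the 8 class I genes in DMSO, ISO and SR-3420, from 3 libraries per group, with bars for the 95% interval and filled points for an adjusted p of 0.05 or less. Tap1 is filled in all 3 treatments, and Psmb10 lies near 0 in ISO and SR-3420 but at 1.09 in DMSO.

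The stimuli were also compared with DMSO, and between 0 and 2 of the 8 genes passed in each comparison. Without Dox, ISO against DMSO passed for 1 of 8, against 28% of all genes in either direction. That gene was Psmb10, at 0.85 ± 0.31 on the log2 scale (SE, edgeR adjusted p = 0.0398), and the call was lost in each of the 6 fits that left out a library (adjusted p 0.0509 to 0.113). With Dox, ISO against DMSO passed for 2 of 8, both lower, against 16.1% of all genes lower. Tap2 was lower in ISO by -0.71 ± 0.21 (edgeR adjusted p = 0.0116) and Tapbp by -0.52 ± 0.18 (edgeR adjusted p = 0.0262), and for both the replicates with ISO all lay below those with DMSO (21.4% of all genes). Both calls were lost without DMSO with Dox replicate 2 or ISO with Dox replicate 1, that of Tap2 also without ISO with Dox replicate 3 and that of Tapbp also without DMSO with Dox replicate 3. SR-3420 against DMSO without Dox passed for 0 of 8 by edgeR, against 0.766% of all genes, with 1 of the 8 at an unadjusted p under 0.05 (Psmb10, 0.79 ± 0.30), near the 8.77% of all genes at that limit. With Dox, SR-3420 against DMSO passed for H2-K1, higher by 0.54 ± 0.15 (edgeR adjusted p = 0.0157), and for Tapbp, lower by -0.66 ± 0.18 (edgeR adjusted p = 0.0175), against 6.53% of all genes higher and 3.37% lower. Without the SR-3420 with Dox replicate 1 library Tapbp no longer passed, at -0.49 (edgeR adjusted p = 0.144), nor did it without SR-3420 with Dox replicate 3 (0.0503) or DMSO with Dox replicate 3 (0.0570). The H2-K1 call was lost without DMSO with Dox replicate 1 (edgeR adjusted p = 0.115) or 3 (0.0511), without SR-3420 with Dox replicate 2 (0.0688) and with library totals as the scale (0.37 on the log2 scale, adjusted p = 0.153). Tap2, at -0.59 ± 0.22, did not pass (edgeR adjusted p = 0.0847), but it did with the replicate block (0.029), upper-quartile factors (0.0472) and library totals (0.0316) and without SR-3420 with Dox replicate 2 (0.0466).

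Other genes of the pathway were read from the mean Dox effect over the treatments, in which 11.8% of all genes tested passed upward and 8.73% downward. Of 7 tested class I relatives, 3 rose and 2 fell. The nonclassical heavy chain genes H2-Q4 (1.95-fold), H2-T10 (1.91-fold) and H2-M3 (1.72-fold) rose, although the H2-M3 call (edgeR adjusted p = 0.0436) was lost in 12 of the 18 fits that left out a library, with upper-quartile factors (0.0544), with library totals (0.0770) and with DESeq2 (0.0598). Cd1d1, which encodes a lipid-presenting molecule, fell by 0.64 on the log2 scale, and its neighbour Cd1d2, named after its value was seen, fell by 0.73. Of 16 peptide loading and trimming genes, 2 rose, the cytosolic peptidase gene Npepps (1.21-fold) and Lnpep (1.45-fold), which encodes an endosomal aminopeptidase, and the median log2 fold change of the list was -0.06. That count is about the share of all genes that passed upward and shows nothing particular to the list. Of 32 genes of the constitutive proteasome, 3 rose (Psmb7, Psma1 and Psmb2, at 0.46, 0.39 and 0.31 on the log2 scale), Psma7 fell by 0.31 and the median was 0.01, so that both counts lie below the shares over all genes. With library totals as the scale, Npepps, Psma1 and Psmb2 no longer passed. Psmb7 and Psmb2 encode β subunits, of which PSMB7 is the one that PSMB10 replaces.

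Among 25 tested regulators of interferon and class I genes, 5 rose and 3 fell, against 11.8% and 8.73% of all genes tested, and the count that fell is near its share over all genes. Stat2 and Irf9, which encode transcription factors that act in the type I interferon response, rose 2.96-fold and 2.91-fold, and both passed in each treatment, with log2 fold changes between 1.07 and 2.00. Relb, an NF-κB subunit, rose 1.34-fold, with 0.87 in SR-3420, 0.22 in DMSO and 0.18 in ISO on the log2 scale, and its effect in SR-3420 was not shown to differ from that in DMSO or ISO (edgeR interaction, adjusted p = 0.162 and 0.143). Irf1, Nfyb, Jak2 and Nfkb1, named after their values were seen, also passed, with Irf1 at 0.54, Nfyb at -0.52, Jak2 at -0.49 and Nfkb1 at -0.26 on the log2 scale. The NF-Y subunit genes Nfya and Nfyc and the RFX genes Rfx5, Rfxap and Rfxank did not pass. The interferon receptor genes Ifnar1, Ifnar2, Ifngr1 and Ifngr2 did not pass either, at -0.14, 0.27, 0.08 and 0.02. Of 35 interferon-stimulated genes, 31 had enough counts to be tested, and these 31 passed upward, against 11.8% of all genes tested, with a median log2 fold change of 2.89. This list was chosen with earlier results of these data known, so its counts are a description only. Of the 35 genes, 3 were at 0 counts in DMSO without Dox. Their summed level in DMSO was 509 to 834 CPM without and 2684 to 4886 CPM with Dox. A gene counted mainly with Dox enters the test through the groups in which it is high. By treatment the median of the 31 genes was 3.12, 2.74 and 2.80 in DMSO, ISO and SR-3420. Of the 31, 30, 30 and 31 passed upward, against 1.09%, 7.92% and 7.26% of all genes. Rtp4 rose 12.6-fold, Bst2 9.16-fold, Lgals3bp 3.98-fold and Trim25 3.87-fold.

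**Figure D4:**
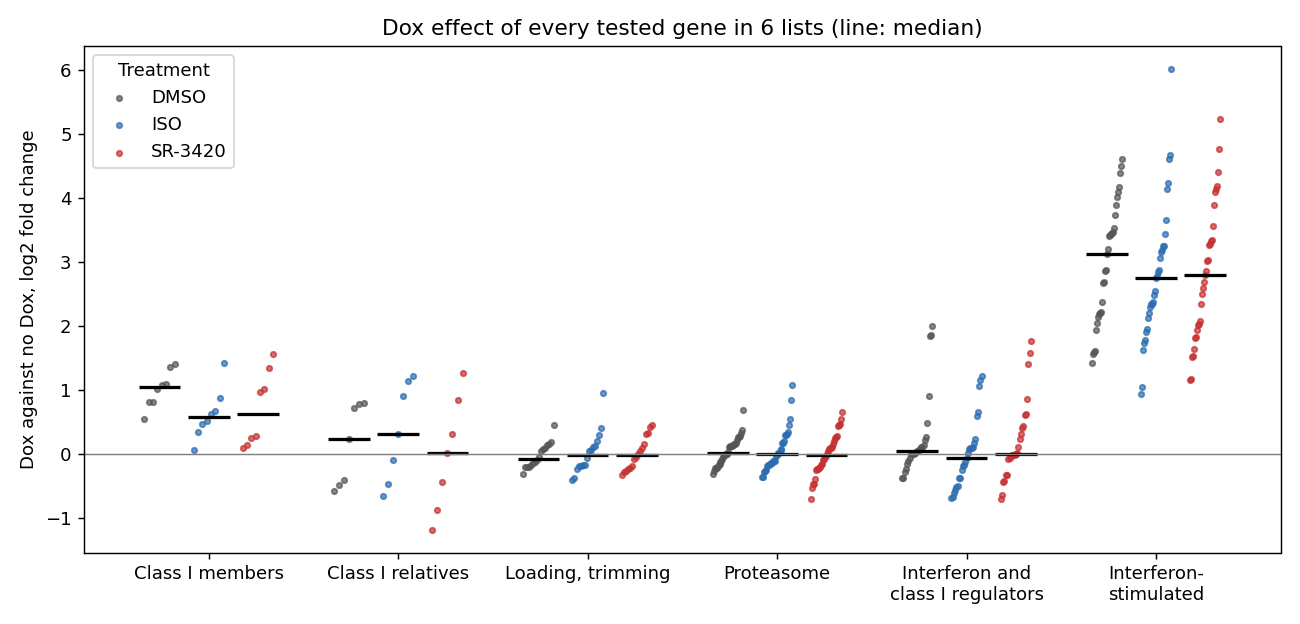
Log2 fold change of Dox against no Dox for each tested gene of 6 lists in DMSO, ISO and SR-3420, 1 point per gene, with a line at the median. The class I genes lie at medians of 1.05, 0.58 and 0.63, the proteasome and the loading and trimming genes near 0, and the interferon-stimulated genes at 3.12, 2.74 and 2.80.

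Cell type markers were read in the same libraries, since in bulk RNA fewer cells of a type and less RNA per cell cannot be told apart. The general adipocyte genes Adipoq, Plin1, Cidec and Lpl lay at mean levels of 503, 923, 528 and 1274 CPM. Among the listed genes of the brown type, Ppargc1a averaged 130 CPM, Ebf2 75.7, Prdm16 65.5, Ucp1 52.6 and Cidea 23.8. Ucp1 ran from 0 to 347 counts per library, and Elovl3 and Cox8b had 24 counts each over all 18 libraries. Of 12 tested adipocyte markers, 8 rose with Dox on average, against 11.8% of all genes tested. By treatment 1 rose in DMSO, 8 in ISO and 6 in SR-3420, against 1.09%, 7.92% and 7.26% of all genes. The median log2 fold changes of the 12 markers were 0.21, 1.05 and 0.57. The summed level over 14 genes was higher with Dox. It lay between 3018 and 3632 CPM without and between 3639 and 4142 CPM with Dox in DMSO, between 4206 and 4523 and between 6563 and 7548 CPM in ISO, and between 4270 and 4724 and between 5368 and 6485 CPM in SR-3420. None of 5 tested preadipocyte markers passed. Of 24 class II and antigen-presenting cell genes, 22 had a row and 3 were tested. H2-Aa and H2-Ob were at 0 counts in all 18 libraries, H2-Ab1, Lyz2 and Cd3e had 1 count in all, Ptprc 7 and Cd74 36. The summed level of the 22 genes lay between 167 and 184 CPM without and between 213 and 247 CPM with Dox in DMSO, between 136 and 186 and between 168 and 229 CPM in ISO, and between 184 and 204 and between 214 and 286 CPM in SR-3420. Most of it was Cd80, a costimulatory ligand gene, at a mean of 152 CPM, which rose 1.33-fold. Of the other genes, H2-DMa averaged 27.8 CPM and Cd68 11.3 CPM. The defining markers H2-Aa, H2-Ab1, Ptprc and Lyz2 were thus at or near 0 in all groups, and the part of the adipocyte marker change in the class I values was not tested.

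The 8 genes varied together over the 18 libraries to different degrees. Pearson's r of log2 CPM between pairs ran from 0.337 for Tap2 with Psmb10 to 0.893 for Psmb8 with Nlrc5. The 10 other genes whose profile was most like the mean log2 CPM of the 8 were Phf11d (r = 0.963), Pml (0.962), Ly6e (0.958), Dhx58 (0.954), Usp18 (0.951), Oas1b (0.948), Parp10 (0.945), Bst2 (0.943), Ifitm3 (0.942) and Daxx (0.942). The mean profile they were chosen for was itself higher with Dox, so their mean Dox effects, from 1.99-fold for Daxx to 16.1-fold for Phf11d, are a description and carry no test. These correlations describe libraries that share their 6 groups, and they carry no test.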

How the data were processed

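RNA was measured in 18 libraries of 6 groups (3 each), assigned from the sample titles. Per the study's methods, the authors mapped reads to mm9 with STAR (version 2.4.2a in the submitters' processing notes), kept 1 read per position and length with HOMER and quantified genes with iRNA-seq. The deposited values are raw counts (whole numbers) of reads for each gene in each library, and the mapper's settings are not given in the sources used here. Library totals ran from 689910 to 1956565. The methods speak of independent experiments, but the labels do not tie libraries to cultures, so p-values measure the spread between these libraries.

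The table held 17672 genes and 18 sample columns, with 0 columns of other samples. Low counts were removed with filterByExpr, which left 10178 genes, TMM factors (0.768 to 1.13) were applied and quasi-likelihood models with 1 mean per group were fitted in edgeR 4.0.16 (R 4.3.3; biological coefficient of variation 0.133). Tests were two-sided with Benjamini-Hochberg adjustment across the 10178 genes. An adjusted p up to 0.05 counted as passed, and the stricter call adds a log2 fold change of 1 in size. Standard errors come from the F statistic and 95% intervals from its t quantile. Profiles used log2 CPM with a prior count of 2. The functions were tested on simulated data. No 2 libraries of the same group were alike within sampling noise.

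Named genes were the members, Abhd5, up to 4 genes per list with the smallest p in the mean Dox effect among those that passed, and the 10 genes most like the members' mean profile. Cd1d2, Irf1, Nfyb, Jak2 and Nfkb1 were named outside this rule. So were the NF-Y, RFX and interferon receptor genes that did not pass, and the cell type markers come from lists of their own. The members and lists were chosen with earlier results of these data known. Alternatives used other size factors and filters, DESeq2 1.42.0, limma-voom (limma 3.58.1), a replicate block, only the groups compared, stricter limits and fits without 1 library. Promoter windows came from RefSeq (GRCm38.p6), gene positions from the deposited mm9 table and overlaps from GENCODE vM1. The result of 1 listed gene is not reported here.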

Additional observations from a re-analysis of the deposited data

Results flagged for a closer look

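The Dox effect on Abhd5 was smaller in ISO than in DMSO, with a difference of -0.98 on the log2 scale (edgeR interaction test, adjusted p = 0.0194), and Abhd5 rose with Dox in both. The Dox effect on Psma1, a subunit of the constitutive proteasome, was larger in ISO than in DMSO by 1.26 on the log2 scale (edgeR interaction test, adjusted p = 0.0015), with 1.08 in ISO and -0.18 in DMSO.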

How the results depend on the processing

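Of the class I genes, 7 passed on average, 3 in DMSO, 2 in ISO and 4 in SR-3420. Without a filter on low counts, 7 passed in DMSO. With a fold limit, 1 passed in ISO and 2 on average. In the fits that left out 1 library, 1 to 5 passed in DMSO, 2 to 3 in ISO, 4 in SR-3420 and 7 to 8 on average. ISO against DMSO without Dox passed 1 gene, and 0 with upper-quartile factors, library totals, DESeq2, limma-voom, an adjusted p of 0.01, the fold limit and in every fit without 1 library. A minimum of 10 counts in every library left 5 of the 8 genes and took out Psmb10, so that comparison could only pass 0 there. With Dox, ISO and SR-3420 against DMSO each passed 2 genes, 0 at an adjusted p of 0.01 or with the fold limit, and 0 to 2 without 1 library. The cause was not tested where stricter limits or fewer libraries do not give it. In SR-3420 the Dox effect turned to -0.089 with library totals for both Tapbp and Psmb10. In the fits that left out 1 library, it ranged from -0.071 to 0.29 for Tapbp and from -0.087 to 0.31 for Psmb10 in SR-3420, where it was -0.0065 without SR-3420 with Dox replicate 3, and from -0.12 to 0.26 for Psmb10 in ISO. None of these effects passed in either direction.

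Same-numbered libraries correlated in their deviations from group means at r = 0.0386 to 0.277 (median 0.149), over 0.1 in 36 of 45 pairs. The 90 pairs with different numbers ran from -0.209 to 0.0867 (median -0.092), with 0 over 0.1. Of the 18 libraries, 18 matched best with their own number, a hint from the data that the numbers may mark a shared experiment. Between the groups with and without Dox, the 3 pairs of ISO were each over 0.1 (0.128 to 0.252), and replicate 3 was not in DMSO (0.0875) or SR-3420 (0.0386). As the labels do not state a shared experiment and not every pair exceeded 0.1, the block is given only as an alternative. With the replicate block, 7 class I genes passed in DMSO, and 1 (Tapbp) in the difference between SR-3420 and DMSO. It moved the genes passing from 120 to 271 for Dox in DMSO, 1175 to 1834 for Dox in SR-3420, 222 to 600, 77 to 339 and 89 to 311 for the differences ISO minus DMSO, SR-3420 minus DMSO and SR-3420 minus ISO, and 78 to 238 and 1008 to 1568 for SR-3420 against DMSO without and with Dox.

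Counts over all genes also moved by over 1.5 times elsewhere. Without the filter they were 191 for Dox in DMSO, 358, 156 and 213 for the differences in that order and 157 for SR-3420 without Dox. With library totals they were 130 and 42 for the differences from DMSO and 36 for SR-3420 without Dox. A minimum of 10 counts gave 62 for Dox in DMSO. An adjusted p of 0.01 gave 713, 575 and 1137 for Dox in ISO, in SR-3420 and on average, 79, 9 and 16 for the differences, 1670 and 2104 for ISO without and with Dox, and 29 and 520 for SR-3420. The fold limit gave 477, 346 and 190 for Dox in ISO, in SR-3420 and on average, 133 for the difference ISO minus DMSO, 1108 and 1334 for ISO, and 27 and 316 for SR-3420. Fits without 1 library ranged from 77 to 143 for Dox in DMSO, 905 to 1139 in ISO, 757 to 933 in SR-3420 and 1796 to 2057 on average, 111 to 301, 28 to 68 and 25 to 96 for the differences, 2028 to 2620 and 2570 to 3025 for ISO, and 28 to 53 and 639 to 847 for SR-3420. The share of passing genes that were higher moved from 62.1% to 49.6% for Dox in ISO, 62.9% to 50.1% in SR-3420 and 57.4% to 45.5% on average with upper-quartile factors. The planned sum of H2-K1 with H2-D1 was not run, as H2-D1 was not analysed here. Counts of 4 to 26 limit what can be said of Psmb8.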
